A study of Mus musculus with 14 samples.

Results

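F-box proteins are the interchangeable part of the SCF ubiquitin ligases, in which the scaffold CUL1, the RING protein RBX1 and the adaptor SKP1 hold an F-box protein that binds the substrate. The names record what lies beside the F-box, leucine-rich repeats in the Fbxl genes and other or no known domains in the Fbxo genes. Protein destruction by ubiquitin ligases is central to the meiotic cell cycle of oocytes, where the anaphase-promoting complex and SCF ligases act in turn. The F-box genes described here were chosen by symbol, as Fbxo or Fbxl followed by a number, and 3 such genes are not reported here. This left 51 genes, 34 Fbxo and 17 Fbxl, of 20638 genes counted. Each gene was represented by its transcript with the highest mean count, since 42 of the 51 had a single RefSeq transcript.

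Messenger RNA was sequenced in 14 libraries of full-grown, germinal vesicle-intact mouse oocytes, each made from 20 oocytes pooled from at least 3 females of 4 to 6 weeks given 5 IU of eCG 48 h earlier. The 5 genotypes were compared: Ago2 fl/fl (floxed alleles with no Cre, 3 libraries), Ago2 ADH (1 floxed allele and 1 allele for catalytically inactive AGO2, with Zp3-Cre, 3 libraries), Ago2 null (both alleles floxed, with Zp3-Cre, 2 libraries), Dicer WT and Dicer KO (3 libraries each, Dicer deleted in the oocyte). AGO2 is the Argonaute protein that cleaves the targets of small RNAs, and Dicer makes those small RNAs from double-stranded precursors. Zp3-Cre acts only from the start of oocyte growth, so protein and RNA made earlier can persist, and Ago2 ADH oocytes keep a single Ago2 allele. The deposited counts carry lane numbers, a different one for each of the 3 Ago2 genotypes, so that lane and genotype cannot be told apart in the Ago2 comparisons.

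Total counts ran from 29380403 to 58285057 per library. Ago2 itself stood at 24.4, 25.4 and 24.0 counts per 1000000 (CPM, TMM-scaled) in Ago2 fl/fl oocytes, 13.7, 13.0 and 12.4 in Ago2 ADH and 7.17 and 5.3 in Ago2 null oocytes. Ago2 was also lower in Dicer KO (16.8, 15.6 and 20.7) than in Dicer WT oocytes (27.3, 24.7 and 26.2). Dicer1 was higher in Dicer KO (1943, 1824 and 1679) than in Dicer WT oocytes (749.8, 745 and 779). It was also higher in Ago2 ADH (968, 990 and 1006) and Ago2 null (948 and 943) than in Ago2 fl/fl oocytes (625, 643 and 651). Neither change was thus particular to the mutant of that gene. A count over the whole transcript does not resolve deleted exons and does not check the Dicer KO label. The 10 oocyte markers were all present and summed to 17063 to 19404 CPM in Ago2 libraries and 12544 to 12962 in Dicer libraries. Among them 5 rose and 2 fell in Ago2 ADH, 5 rose and 1 fell in Ago2 null, and 2 rose and 1 fell in Dicer KO oocytes. Over all genes 40.9%, 37.3% and 34.5% were called in that order, in either direction. The 12 cumulus and granulosa cell markers summed to 72.9 to 79.5 in Ago2 fl/fl, 60.3 to 66.1 in Ago2 ADH, 53.0 to 57.1 in Ago2 null, 92.1 to 101 in Dicer WT and 77.0 to 79.6 in Dicer KO oocytes, with Ptx3 at 0 in all groups but Ago2 ADH. Of those tested, 1 of 8 rose (Cyp11a1) and 2 fell in Ago2 ADH, 1 of 9 fell in Ago2 null and 3 of 6 fell in Dicer KO oocytes, Cyp11a1 among them. Their part in the results was not tested. The 4 blood and immune markers did not pass 0.301 CPM in any library. Alignments to several places, which were not counted, numbered 30491868 to 32784116 in Ago2 fl/fl libraries, 70439237 to 86360995 in Ago2 ADH and Ago2 null libraries, 16525441 to 20627329 in Dicer WT and 28285150 to 42609210 in Dicer KO libraries. Their part in the results was not tested either.

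RNA of most F-box genes was detected in control oocytes. Measured per kilobase of transcript and per 1000000 counts of a library (RPKM), 37 of the 51 reached at least 1 in Ago2 fl/fl oocytes and 35 in Dicer WT oocytes (72.5% and 68.6%, against 47.3% of all genes in both). The median F-box gene stood at 5.39 RPKM in Ago2 fl/fl and 4.56 in Dicer WT oocytes, where the median of all genes was 0.724 and 0.748. Together the 51 genes took 0.166% of all RPKM in Ago2 fl/fl and 0.185% in Dicer WT oocytes. Each pool held the same number of oocytes, but RNA per oocyte and the share of oocytes that carry it cannot be told apart.

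The order of levels began with Fbxo28, whose product takes part in mitotic and MYC regulation, at 65.3, 63.2 and 64.1 RPKM in the 3 Ago2 fl/fl libraries and 56.8, 56.9 and 56.3 in Dicer WT. Fbxo11, which directs BCL6 to destruction, stood at 47.4, 49.5 and 47.4 RPKM in Ago2 fl/fl and 68.9, 61.9 and 65.6 in Dicer WT oocytes. Fbxo28 was therefore the highest in one set of controls and Fbxo11 in the other, with no overlap between both genes in either. Fbxo8, an F-box protein with a Sec7 domain, followed at 46.2, 46.7 and 41.0 RPKM in Ago2 fl/fl oocytes. Fbxo5, also known as Emi1, the inhibitor of the anaphase-promoting complex, stood at 44.3, 40.6 and 41.4 RPKM in the same libraries. The ranges of Fbxo8 and Fbxo5 overlapped there, so their order is not resolved. Fbxo30, which acts on the spindle kinesin Eg5, was at 36.1, 36.2 and 33.1 RPKM, below Fbxo5 in all 3 libraries. The 8 highest were completed by Fbxl14, a ligase for Snail proteins, with a mean of 20.9 RPKM, Fbxl6 with 26.1 and Fbxo38 with 18.9 in Ago2 fl/fl oocytes. In Dicer WT oocytes Fbxl14 was higher, at 40.0 RPKM, and Fbxl6 lower, at 13.8; both sets of controls belong to separate experiments, and this difference was not tested.

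**Figure D1:**
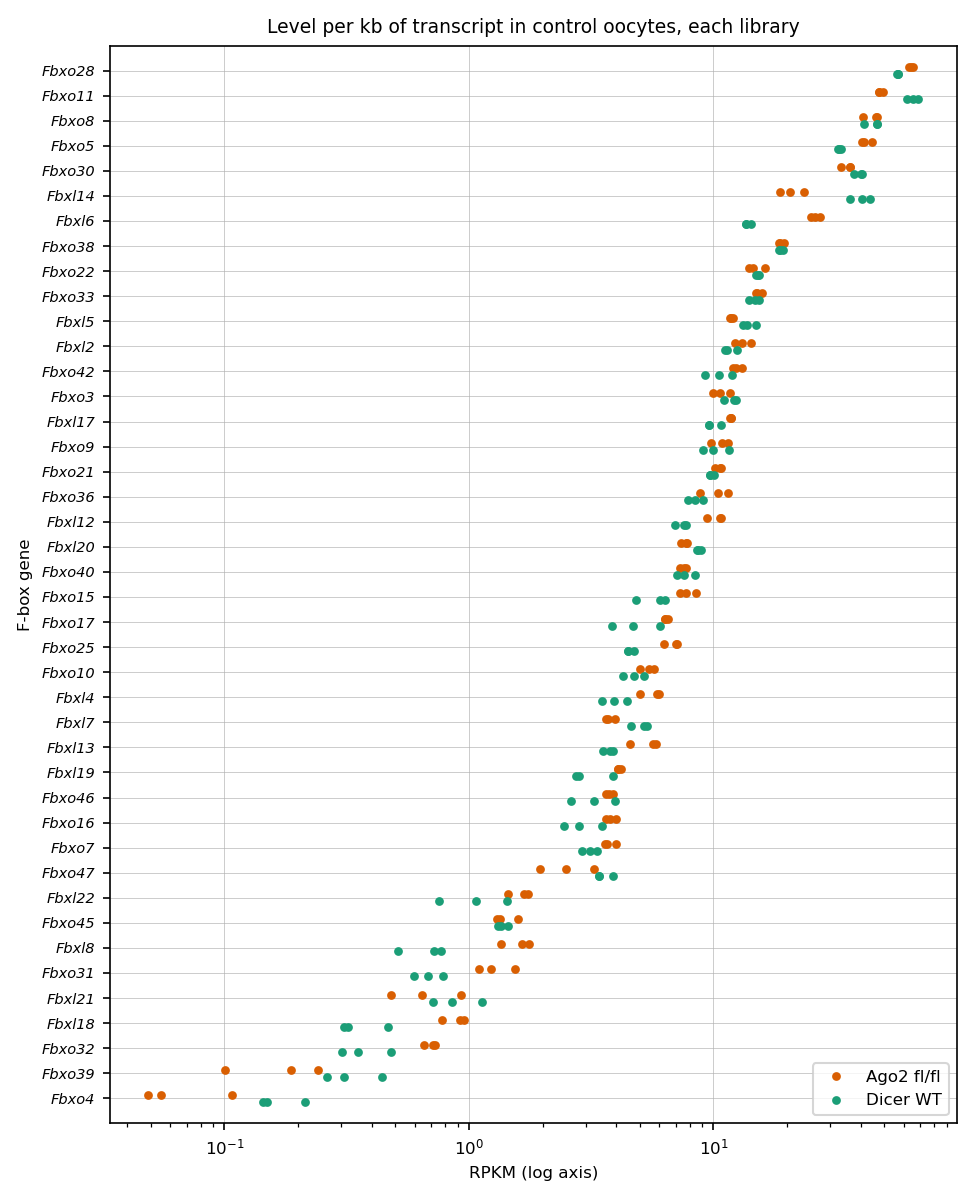
Level per kilobase of the F-box genes at or above 0.1 RPKM (log axis) in each Ago2 fl/fl (orange) and Dicer WT (green) library, ordered by the median over both. Fbxo28 and Fbxo11 lead, and most genes lie between 1 and 20 RPKM in both sets of controls.

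At the low end, 7 of the 51 genes had too few counts to be tested in any comparison with a control. These were Fbxl16, Fbxo2, Fbxo4, Fbxo6, Fbxo24, Fbxo44 and Fbxo48. Another 5 genes were listed together as glycoprotein-binding F-box genes, a role not shown here for each of them. Of these 5, 3 were among the untested genes and lie side by side on mouse chromosome 4 (GRCm38), Fbxo6 at chr4:148145716-148152135, Fbxo44 at chr4:148152799-148160183 and Fbxo2 at chr4:148160198-148166420. Their counts were at or near 0 in every library, the highest being 0.171 CPM for Fbxo6. The other 2 lie together on chromosome 7, Fbxo27 at chr7:28692780-28699338 and Fbxo17 at chr7:28716749-28738145. Fbxo17 was well detected, with 12.4, 12.4 and 12.7 CPM in Ago2 fl/fl oocytes.

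Catalytically inactive AGO2 was accompanied by changes in 14 F-box genes. Among 44 that could be tested, 7 rose and 7 fell in Ago2 ADH oocytes against the Ago2 fl/fl controls (edgeR, FDR of 1%), or 15.9% each, where 21.0% and 19.9% of all 13979 genes tested rose and fell. The median log2 fold change of the F-box genes was 0.0037 and that of all genes 0.012, and without regard to sign the medians were 0.27 and 0.35. In Ago2 null oocytes, against the same controls, 8 of 44 rose and 8 fell (18.2% each, against 18.6% and 18.7% of all 14302 genes). Both Ago2 comparisons are therefore not independent of each other. In Dicer KO against Dicer WT oocytes 8 of 41 rose and 7 fell (19.5% and 17.1%, against 16.9% and 17.6% of all 13799 genes), with a median log2 fold change of 0.048 against 0.0004 for all genes. Of the 51 genes, 22 were called in at least 1 of the 3 comparisons and 29 in none, the 7 that could not be tested included. Among the 44 tested at least once this is 50%, where 50.9% of all 14727 genes were called. The down-regulated count in Ago2 ADH oocytes depended on the scaling: with total counts in place of TMM factors it was 12 against 7 up, so that 36.8% rather than 50% of the called genes were up, while over all genes that share moved from 51.4% to 45.1%.

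**Figure D2:**
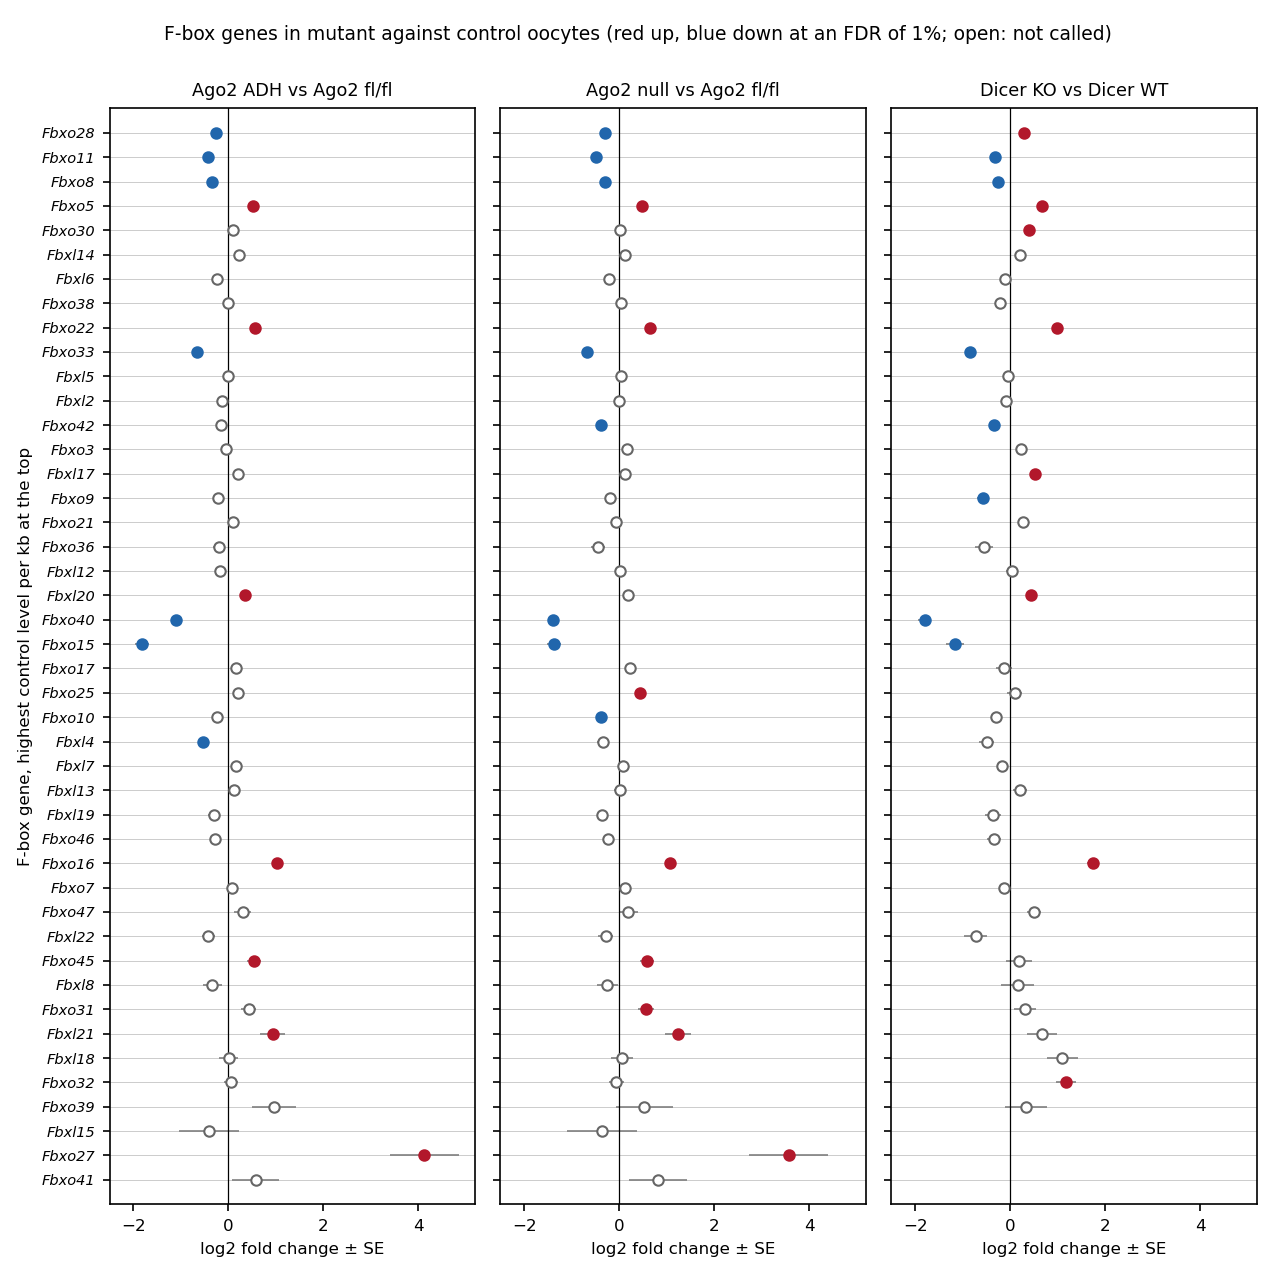
log2 fold change (± SE, edgeR) of every F-box gene that could be tested, in Ago2 ADH and Ago2 null against Ago2 fl/fl oocytes and in Dicer KO against Dicer WT, ordered by control level. Filled points passed an FDR of 1% (red up, blue down); Fbxo15 and Fbxo40 lie furthest below 0 in all 3 panels, and Fbxo28 is blue in the Ago2 panels and red in the Dicer panel.

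Of 41 F-box genes tested in all 3 comparisons, 8 were called in the same direction in each (19.5%, against 23.5% of all 13310 genes so tested); both Ago2 comparisons share their controls. Fbxo5, Fbxo16 and Fbxo22 rose in each, and Fbxo8, Fbxo11, Fbxo15, Fbxo33 and Fbxo40 fell in each. Fbxo28 was the only gene called in opposite directions, lower with either Ago2 mutation and higher without Dicer. Upstream sequences are shown for one gene of each kind whose RefSeq start site lay within 30 bases of the start of its counted transcript. They cover 250 bases before that start, taken from the RefSeq-based promoter table of GRCm38.p6, and run 5′ to 3′ on the gene's strand at chr9:55208685-55208934 (plus strand), chr16:36979137-36979386 (minus strand) and chr1:182341607-182341856 (minus strand). Capitals mark the GC box GGGCGG, the CCAAT box CCAAT, the E-box CACGTG, the TATA box TATAAA and the NOBOX element TAATTG on either strand.
Fbxo22: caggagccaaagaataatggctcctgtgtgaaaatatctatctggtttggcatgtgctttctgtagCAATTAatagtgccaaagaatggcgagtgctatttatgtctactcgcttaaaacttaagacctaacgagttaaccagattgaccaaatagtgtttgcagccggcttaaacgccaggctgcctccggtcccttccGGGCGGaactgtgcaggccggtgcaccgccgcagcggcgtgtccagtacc
Fbxo40: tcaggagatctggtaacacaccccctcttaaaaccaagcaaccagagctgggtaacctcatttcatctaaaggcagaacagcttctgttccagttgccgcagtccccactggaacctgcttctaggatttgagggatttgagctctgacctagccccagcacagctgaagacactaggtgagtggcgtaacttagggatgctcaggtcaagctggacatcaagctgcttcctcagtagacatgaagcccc
Fbxo28: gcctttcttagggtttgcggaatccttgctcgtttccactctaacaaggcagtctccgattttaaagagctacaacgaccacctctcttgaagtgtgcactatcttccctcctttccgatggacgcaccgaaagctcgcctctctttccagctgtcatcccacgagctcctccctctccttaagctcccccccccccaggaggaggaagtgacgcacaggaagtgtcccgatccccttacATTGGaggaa
The Fbxo22 window held 1 GC box and 1 NOBOX element, and the Fbxo28 window 1 CCAAT box. None of these letters occurred in the Fbxo40 window, which was also poor in CpG, with 0.121 of the CpG its base composition would give against 0.819 for Fbxo22 and 0.640 for Fbxo28. Promoters were at hand for 39 of the 51 genes (56 start sites). Of these start sites 62.5% held a GC box, 26.8% a CCAAT box, 5.36% an E-box, 5.36% a NOBOX element and none a TATA box, where all 32851 start sites gave 32.7%, 33.8%, 6.02%, 7.17% and 12.4%. The median GC content of the windows was 59.8% for the F-box genes and 52.4% for all start sites. Their median CpG ratios, as given above for single genes, were 0.674 and 0.374. The part of base composition in the motif shares was not tested. A match of letters is a description and not a binding site.

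Among cell cycle genes, Fbxo5 (chr10:5799158-5805465) had 86.0, 78.8 and 80.3 CPM in Ago2 fl/fl oocytes, 103, 118 and 117 in Ago2 ADH and 107 and 117 in Ago2 null oocytes. The Dicer WT libraries gave 62.5, 64.5 and 63.4 and the Dicer KO libraries 109.8, 99.0 and 94.4. Every mutant library lay above every one of its controls. The log2 fold changes (± SE, edgeR's quasi-likelihood test) were 0.51 ± 0.060 (adjusted p = 9.04e-07) in Ago2 ADH, 0.48 ± 0.067 (adjusted p = 1.58e-05) in Ago2 null and 0.67 ± 0.072 (adjusted p = 3.59e-07) in Dicer KO oocytes. Of the 9 cell cycle and genome genes tested in each comparison (Fbxo4 could not be), Fbxo5 was the only one that rose in all 3. Among all 13310 genes so tested 11.2% rose in all 3, so 1 of 9 is not particular to this list.

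Fbxo30 (chr10:11281330-11305750) rose in Dicer KO oocytes. Its CPM were 205, 189.5 and 203 in Dicer WT and 266, 258 and 259 in Dicer KO oocytes, with no overlap, a log2 fold change of 0.39 ± 0.059 (adjusted p = 2.47e-05). In Ago2 fl/fl oocytes it stood at 182, 183 and 168, in Ago2 ADH at 179, 189 and 188 and in Ago2 null at 168 and 184. These CPM of the 3 groups overlapped. With the scaling of its own comparison, every Ago2 ADH library lay above every control, while Ago2 null libraries overlapped them. The log2 fold changes were 0.10 ± 0.050 (adjusted p = 0.0889) in Ago2 ADH and 0.017 ± 0.063 (adjusted p = 0.846) in Ago2 null oocytes. Fbxo31, which targets cyclin D1 after DNA damage, rose in Ago2 null oocytes from 5.37, 6.75 and 4.78 to 7.59 and 8.76 CPM (0.57 ± 0.16 with adjusted p = 0.00784). This call was lost without Ago2 fl/fl replicate 1 (adjusted p = 0.0239), Ago2 fl/fl replicate 3 (0.0389) or Ago2 null replicate 2 (0.0718), and in a fit of all 5 groups (0.0266). Fbxo31 gave 0.43 ± 0.16 (adjusted p = 0.0297) in Ago2 ADH and 0.32 ± 0.23 (adjusted p = 0.272) in Dicer KO oocytes. Fbxl2, Fbxl7, Fbxl8, Fbxl12 and Fbxo47 did not pass the test in any of the 3.

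Fbxo28 (chr1:182313102-182341606), the most abundant per kilobase in Ago2 fl/fl oocytes, moved both ways. It had 321, 311 and 316 CPM in Ago2 fl/fl oocytes against 249.8, 262 and 254 in Ago2 ADH and 249.8 and 252 in Ago2 null oocytes. In the other set it had 279.6, 280.0 and 277 in Dicer WT and 363, 346 and 323 in Dicer KO oocytes. All mutant libraries lay below their controls for Ago2 and above them for Dicer. The log2 fold changes were -0.26 ± 0.045 (adjusted p = 7.59e-05), -0.30 ± 0.054 (adjusted p = 0.000203) and 0.30 ± 0.060 (adjusted p = 0.000455) in that order. The Ago2 ADH change minus the Dicer KO change was -0.61 ± 0.072 (adjusted p = 6.40e-06). These directions held under every scaling tried and with each library left out.

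Fbxl21, a gene with leucine-rich repeats, was scarce but rose in both Ago2 mutants. It stood at 0.947, 1.26 and 1.83 CPM in Ago2 fl/fl, 2.81, 2.03 and 2.66 in Ago2 ADH and 3.27 and 2.93 in Ago2 null oocytes. No mutant library overlapped the controls (0.94 ± 0.26 with adjusted p = 0.00593, and 1.24 ± 0.28 with adjusted p = 0.00143). The Ago2 ADH call was lost without any 1 of Ago2 fl/fl replicates 1 and 2 and Ago2 ADH replicates 1 and 3 (adjusted p from 0.0206 to 0.0329) and in a fit of all 5 groups (0.0120); the Ago2 null call was lost without Ago2 null replicate 1 (0.0124). In Dicer KO oocytes its log2 fold change was 0.67 ± 0.31 (adjusted p = 0.0832).

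Genes tied to chromatin and transcription went both ways. Fbxo22 (chr9:55208935-55224433), which targets the histone demethylase KDM4A and whose upstream sequence is given above, had 34.4, 29.4 and 30.6 CPM in Ago2 fl/fl oocytes. Ago2 ADH oocytes had 45.2, 45.4 and 44.0, Ago2 null 50.6 and 45.6, Dicer WT 32.3, 31.7 and 32.2 and Dicer KO 70.8, 63.6 and 57.5. No mutant library overlapped its controls here either. On the log2 scale the changes were 0.56 ± 0.072 (adjusted p = 2.85e-06) in Ago2 ADH, 0.64 ± 0.085 (adjusted p = 9.38e-06) in Ago2 null and 0.99 ± 0.085 (adjusted p = 1.71e-08) in Dicer KO oocytes. Its exons overlap those of Nrg4 on the other strand, and the counting did not use strand; Nrg4 moved by -0.20 ± 0.074 (adjusted p = 0.0313), -0.30 ± 0.084 (adjusted p = 0.00723) and 0.047 ± 0.076 (adjusted p = 0.646) in the same order.

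Fbxo15, on chromosome 18 and known as a marker of pluripotent cells and an early target of OCT4 and SOX2, fell the furthest of the 44 genes in Ago2 ADH oocytes. Ago2 fl/fl oocytes had 10.5, 11.1 and 12.2 CPM, Ago2 ADH 3.65, 3.25 and 2.29 and Ago2 null 3.98 and 4.5. Dicer WT oocytes had 9.11, 6.92 and 8.65 and Dicer KO oocytes 3.8, 3.24 and 4.0. The mutant libraries ran up to 4.5 and the controls down to 6.92. Its log2 fold changes were -1.82 ± 0.15 (adjusted p = 1.13e-08), -1.38 ± 0.14 (adjusted p = 5.42e-07) and -1.16 ± 0.18 (adjusted p = 4.18e-05) in Ago2 ADH, Ago2 null and Dicer KO oocytes. Fbxo11 (chr17:87990859-88066045) fell from 191, 199 and 190.5 CPM in Ago2 fl/fl to 143, 138 and 137 in Ago2 ADH and 139.8 and 132 in Ago2 null oocytes. In the Dicer set it fell from 277, 249 and 264 to 206, 226 and 205. None of these groups overlapped its controls, and the log2 fold changes were -0.43 ± 0.049 (adjusted p = 5.89e-07), -0.48 ± 0.060 (adjusted p = 5.33e-06) and -0.31 ± 0.063 (adjusted p = 0.000510). Fbxo11 shares exon sequence with Msh6 on the other strand, for which the values were -0.023 ± 0.051 (adjusted p = 0.723), -0.024 ± 0.060 (adjusted p = 0.769) and 0.058 ± 0.063 (adjusted p = 0.476). Fbxl19, the fourth gene of this list, did not pass the test (-0.31 ± 0.11 with adjusted p = 0.0226 in Ago2 ADH oocytes).

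**Figure D3:**
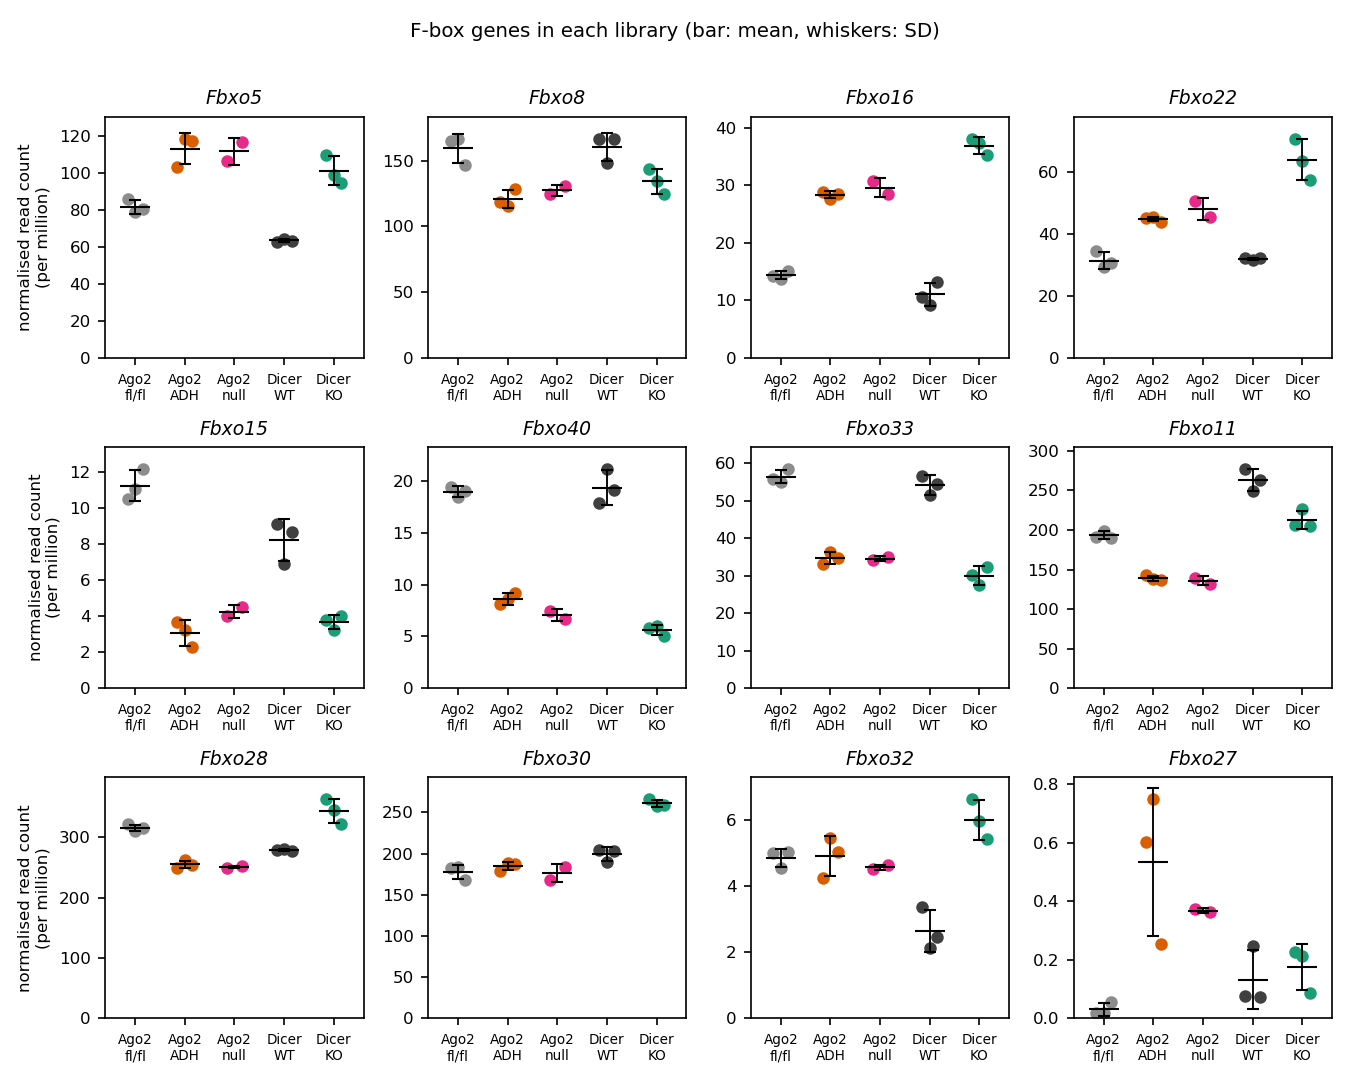
CPM of 12 F-box genes in each of the 14 libraries (points), with the mean (bar) and SD (whiskers) of each genotype. Fbxo5, Fbxo16 and Fbxo22 rise and Fbxo8, Fbxo15, Fbxo40, Fbxo33 and Fbxo11 fall in all 3 mutants, while Fbxo30 and Fbxo32 rise in Dicer KO oocytes and Fbxo27 stands below 0.8 throughout.

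F-box genes best known from muscle were divided. Fbxo40 (chr16:36963461-36990530), a muscle ligase for the insulin receptor substrate IRS1, had 19.5, 18.5 and 19.1 CPM in Ago2 fl/fl oocytes, 8.11, 8.61 and 9.23 in Ago2 ADH and 7.49 and 6.69 in Ago2 null oocytes. Dicer WT oocytes had 17.9, 21.2 and 19.2 and Dicer KO oocytes 5.79, 6.01 and 5.05. The mutant libraries ran up to 9.23 and the controls down to 17.9. Fbxo40 thus changed on the log2 scale by -1.09 ± 0.099 (adjusted p = 2.82e-08) in Ago2 ADH, -1.39 ± 0.11 (adjusted p = 3.26e-08) in Ago2 null and -1.80 ± 0.14 (adjusted p = 3.54e-09) in Dicer KO oocytes, the largest fall in Dicer KO oocytes. The order of Fbxo40 and Fbxo15 was not resolved in Ago2 null oocytes. Fbxo32 (chr15:58175879-58214892), which encodes atrogin-1 of muscle atrophy, rose in Dicer KO oocytes only among the 3 comparisons. It had 3.36, 2.12 and 2.46 CPM in Dicer WT and 6.63, 5.97 and 5.42 in Dicer KO oocytes, a log2 fold change of 1.18 ± 0.22 (adjusted p = 0.000201). It had 4.99, 4.55 and 5.05 in Ago2 fl/fl oocytes, 4.25, 5.45 and 5.04 in Ago2 ADH and 4.52 and 4.63 in Ago2 null. These overlapped (0.060 ± 0.15 with adjusted p = 0.758, and -0.057 ± 0.16 with adjusted p = 0.797). Fbxl22, a cardiac gene, did not pass in any comparison (-0.73 ± 0.25 with adjusted p = 0.0230 in Dicer KO oocytes).

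Fbxo16 (chr14:65266618-65323973) had the largest rise in Dicer KO oocytes. It had 14.3, 13.7 and 15.1 CPM in Ago2 fl/fl, 28.8, 27.6 and 28.5 in Ago2 ADH and 30.8 and 28.4 in Ago2 null oocytes. Dicer WT oocytes had 10.6, 9.21 and 13.3 and Dicer KO oocytes 38.1, 37.4 and 35.3. The lowest mutant library stood at 27.6 and the highest control at 15.1. Its log2 fold changes were 1.03 ± 0.084 (adjusted p = 7.35e-09) in Ago2 ADH, 1.07 ± 0.094 (adjusted p = 7.84e-08) in Ago2 null and 1.74 ± 0.12 (adjusted p = 9.17e-10) in Dicer KO oocytes.

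Fbxo33 and Fbxo8 fell in each mutant. Fbxo33 (chr12:59200655-59221961), an F-box protein for YBX1, had 55.8, 55.0 and 58.4 CPM in Ago2 fl/fl, 33.1, 36.3 and 34.6 in Ago2 ADH and 34.1 and 35.0 in Ago2 null oocytes. It had 56.7, 51.4 and 54.4 in Dicer WT and 30.2, 27.4 and 32.4 in Dicer KO oocytes. The mutant libraries ran up to 36.3 and the controls down to 51.4, and the log2 fold changes were -0.65 ± 0.066 (adjusted p = 1.13e-07), -0.68 ± 0.074 (adjusted p = 1.11e-06) and -0.85 ± 0.086 (adjusted p = 1.51e-07). Fbxo8 (chr8:56551154-56593939) had 165, 167 and 147 CPM in Ago2 fl/fl, 119, 115 and 129 in Ago2 ADH and 125 and 130.4 in Ago2 null oocytes. It had 166, 148 and 166 in Dicer WT and 144, 135 and 125 in Dicer KO oocytes. The groups did not overlap, but the changes were small (-0.35 ± 0.060 with adjusted p = 6.89e-05, -0.29 ± 0.066 with adjusted p = 0.00154 and -0.26 ± 0.069 with adjusted p = 0.00520). The Ago2 null call was lost without Ago2 fl/fl replicate 2 (adjusted p = 0.0193) or Ago2 null replicate 1 (0.0129), and the Dicer KO call without Dicer WT replicate 1 or 3 or Dicer KO replicate 2 or 3 (0.0194 to 0.0266).

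Genes of the synapse were also called. Fbxl20, which controls the presynaptic protein RIM1, rose in Ago2 ADH and Dicer KO oocytes (0.34 ± 0.057 with adjusted p = 5.00e-05, and 0.44 ± 0.077 with adjusted p = 0.000108) and had 0.18 ± 0.078 (adjusted p = 0.0618) in Ago2 null oocytes. Fbxo45, a neuronal F-box gene, rose from 6.63, 5.46 and 5.6 CPM in Ago2 fl/fl to 9.08, 7.0 and 8.88 in Ago2 ADH and 7.79 and 9.58 in Ago2 null oocytes (0.54 ± 0.14 with adjusted p = 0.00291, and 0.59 ± 0.15 with adjusted p = 0.00345). The Ago2 ADH call was lost without Ago2 fl/fl replicate 2 or 3 or Ago2 ADH replicate 1 or 3 (adjusted p from 0.0153 to 0.0227), and the Ago2 null call without Ago2 fl/fl replicate 2 or 3 or Ago2 null replicate 2 (0.0158 to 0.0627). Both were also lost in a fit of all 5 groups (0.0731 and 0.0691). In Dicer KO oocytes Fbxo45 had 3.71, 5.26 and 10.5 CPM, spread on both sides of the Dicer WT values of 5.48, 5.65 and 6.01. Fbxo41 gave no call where it was tested, and Fbxl16 could not be tested.

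Of 3 genes of mitochondria, iron and the proteasome, 1 passed the test, in Ago2 ADH oocytes. There 40.9% of all genes passed, and nothing particular is read from 3 genes. Fbxl4, a mitochondrial F-box gene, had 14.9, 15.3 and 12.7 CPM in Ago2 fl/fl and 9.35, 10.3 and 9.11 in Ago2 ADH oocytes and fell (-0.53 ± 0.11 with adjusted p = 0.000428). It gave -0.34 ± 0.13 (adjusted p = 0.0331) in Ago2 null and -0.49 ± 0.16 (adjusted p = 0.0168) in Dicer KO oocytes. Fbxl5, the iron sensor that controls IRP2, gave -0.00031 ± 0.071 (adjusted p = 0.997), 0.033 ± 0.077 (adjusted p = 0.749) and -0.050 ± 0.084 (adjusted p = 0.656) in the 3 comparisons. Fbxo7, which works with parkin and the proteasome regulator PI31, gave 0.084 ± 0.094 (adjusted p = 0.471), 0.13 ± 0.094 (adjusted p = 0.275) and -0.12 ± 0.12 (adjusted p = 0.422). The mutants overlapped their controls for both genes in all 3 comparisons.

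The other calls concerned genes of unlike roles. Fbxl17, which removes mispaired BTB proteins, rose in Dicer KO oocytes from 47.2, 52.9 and 47.4 to 71.7, 70.6 and 68.9 CPM (0.51 ± 0.074 with adjusted p = 1.52e-05) and gave 0.21 ± 0.064 (adjusted p = 0.0101) in Ago2 ADH oocytes. Fbxo9, which acts on mTOR complex components, fell in Dicer KO oocytes from 18.4, 21.5 and 16.7 to 12.6, 13.0 and 12.7 (-0.56 ± 0.12 with adjusted p = 0.000921), a call lost without Dicer WT replicate 2 (adjusted p = 0.0102). Fbxo42, which acts on p53, fell in Ago2 null oocytes from 77.8, 71.1 and 73.2 to 54.5 and 56.2 (-0.39 ± 0.069 with adjusted p = 0.000195). It also fell in Dicer KO oocytes, from 55.0, 70.8 and 62.4 to 50.9, 49.9 and 48.4 (-0.34 ± 0.087 with adjusted p = 0.00369), though not without Dicer WT replicate 2 (0.0310), Dicer KO replicate 2 (0.0154) or Dicer KO replicate 3 (0.0135). Fbxo10, a ligase for BCL2, fell in Ago2 null oocytes from 23.3, 26.6 and 25.1 to 19.9 and 17.8 (-0.38 ± 0.098 with adjusted p = 0.00433), a call lost without Ago2 fl/fl replicate 2 or 3 or Ago2 null replicate 2 (0.0168 to 0.0486). It was also lower without overlap, though not called, in Ago2 ADH (-0.23 ± 0.083 with adjusted p = 0.0241) and Dicer KO oocytes (-0.30 ± 0.11 with adjusted p = 0.0295). Fbxo25 rose in Ago2 null oocytes from 14.2, 12.6 and 14.2 to 16.9 and 19.6 (0.45 ± 0.11 with adjusted p = 0.00268), a call lost without Ago2 fl/fl replicate 2 (adjusted p = 0.0146) or Ago2 null replicate 2 (0.0495) and in a fit of all 5 groups (0.0142). It gave 0.20 ± 0.097 (adjusted p = 0.0897) in Ago2 ADH and 0.095 ± 0.16 (adjusted p = 0.661) in Dicer KO oocytes.

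Fbxo27 had the largest fold change of all but rested on very few counts. It had 1, 1 and 3 counts in Ago2 fl/fl libraries, 33, 41 and 11 in Ago2 ADH and 21 and 19 in Ago2 null. All 5 mutant libraries were above the 3 controls, yet none reached 1 CPM. The ratio of summed counts, each divided by the summed TMM library sizes, was 18.9 in Ago2 ADH against Ago2 fl/fl oocytes (exact 95% interval 7.79 to 59.7). It was 12.5 in Ago2 null oocytes (4.95 to 40.7), and both intervals cover counting error only. It passed the filter on low counts through the mutant libraries alone, so its 2 calls (adjusted p = 9.13e-05 and 0.00185), the second lost without Ago2 null replicate 1 (0.0184) or 2 (0.0171), add no support. Without Fbxo27, 6 of 43 F-box genes rose in Ago2 ADH and 7 of 43 in Ago2 null oocytes, and with 10 counts required in every library it could not be tested. In Dicer WT it had 3, 10 and 3 counts and in Dicer KO 7, 6 and 3, a ratio of 1.29 (0.602 to 2.75), too few counts to be tested there.

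Ago2 ADH and Ago2 null oocytes were compared directly to ask whether losing the whole protein differed from losing its catalytic activity. None of the 44 F-box genes tested was called by edgeR's quasi-likelihood test, and none by DESeq2; 4 had an unadjusted p under 0.05 (9.09%, against 10.1% of all genes). Over all 14364 genes 0.118% were called. Among the genes that changed against Ago2 fl/fl, the widest gap between both mutants was that of Fbxo27 (0.54 ± 0.56 with adjusted p = 0.810), followed by Fbxo15 (-0.47 ± 0.21 with adjusted p = 0.490), which was lower in Ago2 ADH. Fbxo33 differed by 0.0037 ± 0.086 (adjusted p = 0.995). With 2 Ago2 null libraries, a difference of the size of these errors was not detectable.

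Ago2 ADH and Dicer KO oocytes have no library in common, so their changes can be set side by side. Of 41 genes tested in both, 34 had the same sign (82.9%, against 79.1% of all genes) and Spearman's rho was 0.787 (0.745 over 13335 genes), a description over genes, which are not independent replicates. Of these 41, 4 rose and 5 fell in both, Fbxo28 went opposite ways and 23 were called in neither.

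**Figure D4:**
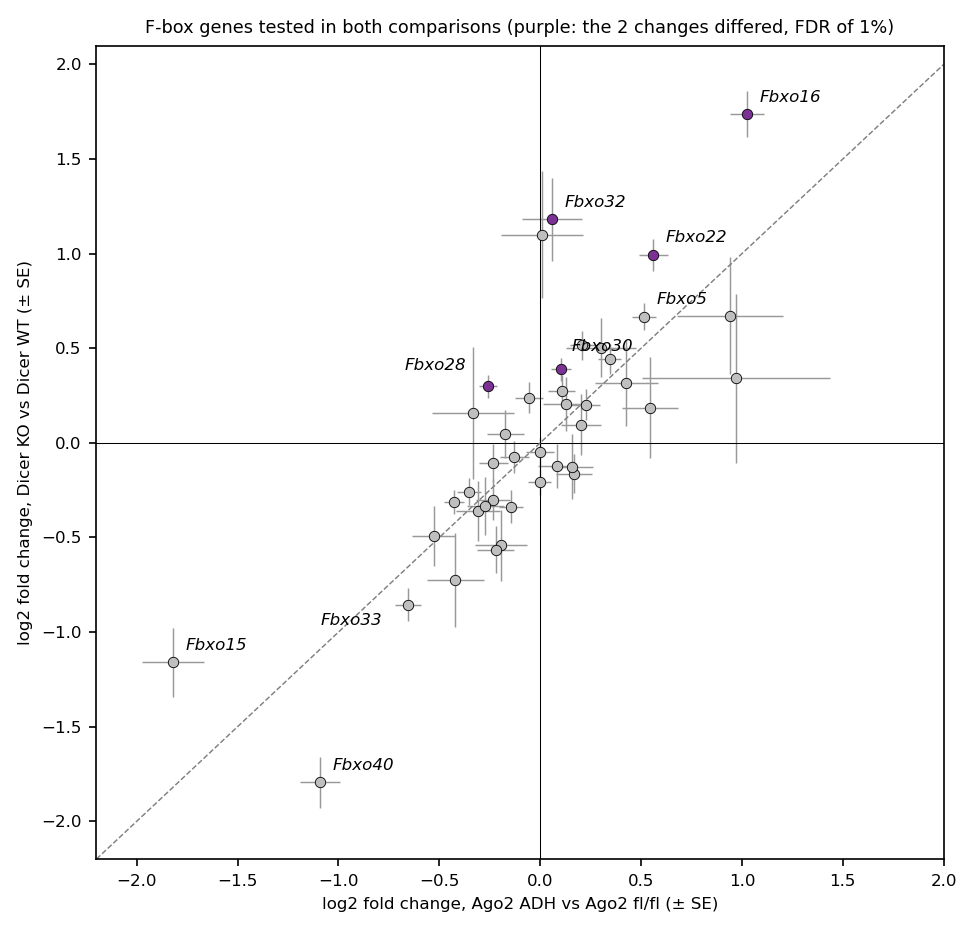
log2 fold change (± SE) of the 41 F-box genes tested in both, Ago2 ADH vs. Ago2 fl/fl on the x axis and Dicer KO vs. Dicer WT on the y axis; the dashed line marks equal change. The 5 purple genes changed to different degrees by the test of the difference, and Fbxo28 alone among them was called on opposite sides of 0.

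The test of the difference itself, over the 12 libraries of both experiments, called 5 of 43 F-box genes. All 5 were lower in the Ago2 ADH change than in the Dicer KO change (11.6%) and none was higher, where all 14530 genes gave 2.44% lower and 1.30% higher. Fbxo16 (-0.76 ± 0.15 with adjusted p = 0.00171) and Fbxo22 (-0.49 ± 0.11 with adjusted p = 0.00825) rose more in Dicer KO oocytes. Fbxo30 (-0.34 ± 0.076 with adjusted p = 0.00670) and Fbxo32 (-1.17 ± 0.26 with adjusted p = 0.00544) were called up in Dicer KO and not in Ago2 ADH oocytes. Fbxo28 has been given above. The calls of Fbxo16 and Fbxo28 held with each of the 12 libraries left out. That of Fbxo30 was lost in 7 cases (without Ago2 fl/fl 1 and 2, Ago2 ADH 1 and 3, Dicer WT 2, Dicer KO 1 and 2), up to 0.0309. That of Fbxo32 was lost in 9 (all Ago2 fl/fl, Ago2 ADH 1 and 3, Dicer WT 2 and 3, Dicer KO 1 and 2), up to 0.0243, and that of Fbxo22 in 10 (all but Ago2 fl/fl 2 and Dicer KO 3), up to 0.0326. Fbxo22 and Fbxo30 were also lost with RLE size factors (adjusted p = 0.0141 and 0.0167) and with total counts (0.0163 and 0.0164). Under either scaling 1 gene was called higher and 3 lower, 25% higher rather than none, while over all genes the share called higher was 34.8%, 44.0% with RLE factors and 50.9% with total counts. The Ago2 and Dicer libraries carry library codes of 2 separate series, and the part of this in the differences was not tested.

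Of the 4 core SCF genes that partner F-box proteins, 3 passed the test in each Ago2 comparison and 1 in Dicer KO oocytes. Over all genes 40.9% passed in Ago2 ADH, 37.3% in Ago2 null and 34.5% in Dicer KO oocytes. A list of 4 genes is too short to be told from these shares. Cul1, the scaffold, had 992, 1006 and 953 CPM in Ago2 fl/fl oocytes, 672, 689 and 763 in Ago2 ADH and 683 and 724 in Ago2 null oocytes. Dicer WT oocytes had 1091, 1014 and 1074 and Dicer KO oocytes 880.3, 837 and 850.1. Every mutant library lay below its controls, and Cul1 fell in all 3 comparisons (-0.43 ± 0.051 with adjusted p = 1.02e-06, -0.45 ± 0.053 with adjusted p = 2.69e-06 and -0.31 ± 0.057 with adjusted p = 0.000191). Skp1, the adaptor, did not pass in any of them (-0.034 ± 0.056 with adjusted p = 0.640, 0.11 ± 0.075 with adjusted p = 0.218 and 0.12 ± 0.063 with adjusted p = 0.137). The RING genes Rbx1 and Rnf7 rose in both Ago2 mutants. Rnf7 had 24.0, 20.7 and 18.8 CPM in Ago2 fl/fl, 39.3, 30.0 and 34.9 in Ago2 ADH and 38.6 and 43.4 in Ago2 null oocytes (0.76 ± 0.10 with adjusted p = 5.08e-06, and 0.98 ± 0.099 with adjusted p = 4.07e-07), and Rbx1 gave 0.24 ± 0.054 (adjusted p = 0.00101) and 0.29 ± 0.063 (adjusted p = 0.00110). The Rbx1 call in Ago2 ADH oocytes was lost without Ago2 fl/fl replicate 2 (adjusted p = 0.0115) or Ago2 ADH replicate 1 (0.010) and in a fit of all 5 groups (0.0115), and that in Ago2 null oocytes without Ago2 fl/fl replicate 2 (0.0101). In Dicer KO oocytes Rnf7 and Rbx1 gave 0.17 ± 0.12 (adjusted p = 0.273) and 0.066 ± 0.072 (adjusted p = 0.480).

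Of 7 F-box genes with other names, Skp2, which directs the cell cycle inhibitor p27 to destruction, fell in all 3. It had 26.7, 27.3 and 27.5 CPM in Ago2 fl/fl, 18.3, 17.6 and 18.3 in Ago2 ADH, 17.8 and 16.6 in Ago2 null, 32.9, 30.8 and 31.7 in Dicer WT and 26.8, 24.4 and 24.5 in Dicer KO oocytes. No mutant overlapped its controls (-0.54 ± 0.080 with adjusted p = 1.52e-05, -0.63 ± 0.091 with adjusted p = 2.41e-05 and -0.34 ± 0.091 with adjusted p = 0.00492), though the Dicer KO call was lost without Dicer WT replicate 1 or 3 or Dicer KO replicate 2 or 3 (adjusted p from 0.0143 to 0.0245). Ccnf, or cyclin F, fell in Ago2 ADH oocytes (-0.30 ± 0.071 with adjusted p = 0.00177) and gave -0.12 ± 0.076 (adjusted p = 0.193) in Ago2 null and -0.065 ± 0.091 (adjusted p = 0.588) in Dicer KO oocytes. None of the 7 rose in any of the 3, 3 fell in Ago2 ADH, 2 in Ago2 null and 4 in Dicer KO oocytes, and their median log2 fold changes were -0.27 in each. Over all genes 40.9%, 37.3% and 34.5% were called in the 3 comparisons in that order, in either direction, and nothing particular is read from these short lists. Of 8 Fbxw genes 1 rose and 1 fell in Ago2 ADH, 2 rose and 1 fell in Ago2 null and 1 fell in Dicer KO oocytes, Fbxw4 being the one that fell each time. Of 21 genes for attaching NEDD8 to cullins and removing it, which turns SCF ligases on and off, 2 rose and 5 fell in Ago2 ADH, 3 rose and 4 fell in Ago2 null and 6 fell and none rose in Dicer KO oocytes. The shares of all genes that rose and fell were 21.0% and 19.9% in Ago2 ADH oocytes. They were 18.6% and 18.7% in Ago2 null and 16.9% and 17.6% in Dicer KO oocytes. Whether the 21 genes depart from these shares was not tested. Uba3, Dcun1d2 and Cops2 fell in all 3, with medians over the 21 of 0.032, -0.0067 and -0.14. Of 6 ubiquitin-conjugating enzymes used by SCF ligases, Ube2r2 rose in all 3, with Ube2d3 up and Ube2d2a and Ube2g1 down in Ago2 ADH and Ube2g1 down in Ago2 null oocytes. The rise of Ube2r2 was 0.80 ± 0.090 in Ago2 ADH, 0.81 ± 0.092 in Ago2 null and 2.89 ± 0.090 in Dicer KO oocytes. Its Ago2 ADH change minus its Dicer KO change was -2.14 ± 0.12 (edgeR, adjusted p = 3.76e-11). For Ube2f, of the NEDD8 genes, this difference was 0.82 ± 0.13 (adjusted p = 0.000195).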

How the data were processed

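RNA was measured in 14 libraries of full-grown oocytes after amplification of cDNA from 20 oocytes each. The authors mapped paired reads to the mouse genome (mm10, that is GRCm38) and its RefSeq transcripts with TopHat (TopHat2 2.0.7 per the submitters' processing notes) and deposited raw read counts per RefSeq transcript made with HTSeq (0.6.1), without strand. Reads common to several transcripts of a gene were counted for each, so counts of transcripts of 1 gene are not independent. Transcript IDs were matched to symbols with RefSeq (26081) and GENCODE (113) tables, and 301 had none. Chromosomal positions of genes are those of RefSeq, and transcript lengths are those of GENCODE vM21.

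Counts were fitted across all transcripts with edgeR 4.0.16 (R 4.3.3): filterByExpr with a minimum count of 10 and a minimum total of 15, TMM factors, and the quasi-likelihood test with Benjamini-Hochberg adjustment over all transcripts, at an FDR of 1%, each comparison on its own libraries. Whether the Ago2 ADH change differed from that of Dicer KO was tested as an interaction over 12 libraries. Standard errors are the log2 fold change divided by the square root of F. Shares over all genes use 1 transcript per gene. CPM (counts per 1000000) and RPKM used TMM sizes over all 14 libraries. Total counts of 29380403 to 58285057 place 3 counts, the most that an absent transcript could hide, at 0.0515 to 0.102 CPM. The pools of each genotype were collected separately, and no 2 libraries agreed within sampling noise (chi-square per degree of freedom 6.35 to 14.3). The fits were run on counts simulated at a fixed dispersion, with recovery required only of the larger simulated fold change. A smaller change can go uncalled, so genes that did not pass are not shown to be unchanged. Alternatives were DESeq2 1.42.0, other scalings, filters and thresholds, all groups in 1 fit, a replicate block and each library left out; scaling by total counts was chosen after seeing the data.

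The members, gene lists and tests were chosen with earlier results of these data known. Genes named were the 6 largest rises and falls per comparison among called genes with at least 100 normalised counts and no overlap, the 8 highest per kilobase, those called in the interaction or in opposite directions, 5 with a known role (Fbxo5, Fbxo30, Fbxo7, Fbxo15 and Fbxl5), and SCF subunits, Skp2 and Ccnf. Other members of lists, and Fbxo25 and Fbxo27, were named after their values were seen. Of the genes with Fbxo and Fbxl symbols, 3 are not reported here.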

Additional observations from a re-analysis of the deposited data

Results flagged for a closer look

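A test of the difference between the Ago2 ADH change and the Dicer KO change (edgeR, over 12 libraries) picked out 5 F-box genes, each with the Ago2 ADH change minus the Dicer KO change on the log2 scale, from 1 fit of both experiments, and beside it the changes from the separate fits. Fbxo16 gave -0.76 ± 0.15 (adjusted p = 0.00171), having risen by 1.03 and 1.74. Fbxo22 gave -0.49 ± 0.11 (adjusted p = 0.00825), from 0.56 and 0.99. Fbxo28 gave -0.61 ± 0.072 (adjusted p = 6.40e-06), from -0.26 and 0.30, the only 1 of the 5 called in opposite directions. Fbxo30 gave -0.34 ± 0.076 (adjusted p = 0.00670), from 0.10 and 0.39. Fbxo32 gave -1.17 ± 0.26 (adjusted p = 0.00544), from 0.060 and 1.18, at 2.12 to 6.63 CPM. The Ago2 and Dicer libraries carry library codes of 2 separate series, and the part of this was not tested.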

How the results depend on the processing

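All 61 calls of single genes kept their direction under every alternative in which they were tested, and all kept their side of the threshold with DESeq2, with no filter and with 1 transcript per gene. RLE factors and total counts each lost 2 calls, a fit of all 5 groups 6. At an FDR of 5%, 13 members fell without AGO2 catalysis (Ago2 ADH), 12 fell without Dicer, and 9 differed between both changes. With total counts (chosen after seeing the data) 12 fell in Ago2 ADH, and with all groups in 1 fit 11 fell in Dicer KO and 5 rather than 8 rose in Ago2 null oocytes. The median change of the members was small and moved with the setting, and the cause was not tested. In Ago2 ADH oocytes it was -0.041 with total counts, 0.074 with no filter and -0.039 in 1 fit. In Ago2 null oocytes it was -0.0091 with total counts, 0.039 with 10 counts in every library and -0.015 in 1 fit. In Dicer KO oocytes it was -0.016 with total counts, 0.11 with no filter and 0.099 in 1 fit. Leaving out 1 library gave medians of -0.0082 to 0.063 in Ago2 ADH, -0.034 to 0.052 in Ago2 null, -0.044 to 0.072 in Dicer KO and -0.029 to 0.0019 in Ago2 ADH against Ago2 null oocytes, 5 (without Ago2 null replicate 2) to 7 members that rose in Ago2 null oocytes, and 2 to 5 that differed between the Ago2 ADH and Dicer KO changes (2 or 3 without any 1 of the Ago2 fl/fl libraries, Ago2 ADH replicates 1 and 3, Dicer WT replicates 2 and 3 or Dicer KO replicates 1 and 2). The replicate numbers did not pair the libraries: deviations of same-numbered libraries correlated between -0.18 and 0.079. A fit with the replicate number as a block called 3 rather than 5 differing members; under the block 6 single calls were lost (Fbxo10, Fbxo31, Fbxo45 and Rbx1 in Ago2 null oocytes, and the differences of Fbxo22 and Fbxo30). Low counts limit the genes under 1 CPM, among them Fbxo27.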

Other observations

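Of the 51 F-box genes, 9 had more than 1 RefSeq transcript. Fbxl5 and Fbxo3 were the detected genes whose transcripts differed most in counts. The lower Fbxl5 transcript had a mean of 453 counts, 27.7% of the 1635 of the higher. For Fbxo3, the lower transcript had 309 counts, 12.3% of the 2502 of the higher. The transcripts of Fbxl12, Fbxl13, Fbxo9 and Fbxo30 lay within 97.9% and 100% of each other. These counts include reads shared by the transcripts of a gene.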
